A study of Mus musculus with 141 samples.

Results

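The growth factor receptor genes described here are Kit, Csf1r, Csf3r, Flt3 and Epor, 5 of the 46078 gene rows counted in single mouse bone marrow cells. They were chosen as a list of lineage growth factor receptors, by gene symbol, and all 5 had a row. Basophil/mast cell progenitors (BMCP) were live cells without lineage markers, positive for Kit, negative for Sca1 and high for integrin beta7 and CD16/32. Granulocyte/monocyte progenitors (GMP) shared the live, lineage, Kit and Sca1 criteria, were CD34-positive and high for CD16/32, and lay outside the BMCP gate. All came from 3 female C57BL/6 mice with no treatment named in the labels, and the labels give no age and do not say which mouse a cell is from. Each population is therefore 1 sample, no test was possible, and limits below are 95% counting limits that say nothing of the spread between mice. After filters on cell quality, 89 of 94 BMCP and 41 of 47 GMP were used. Because both gates required the Kit protein, reads of Kit in most cells describe the sort and are not a finding. Its RNA level could still vary within the gates, and the part of the gates in that level was not tested.

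Kit, Csf1r and Flt3 are type III receptor tyrosine kinases, which dimerise on binding ligand and phosphorylate themselves. Kit binds stem cell factor and is needed by mast cells and early progenitors, Csf1r binds macrophage colony-stimulating factor and interleukin 34 and serves monocytes and macrophages, and Flt3 binds Flt3 ligand and serves multipotent, lymphoid and dendritic cell progenitors. Csf3r and Epor have no kinase of their own: they are class I cytokine receptors that signal through Janus kinases, Csf3r for granulocyte colony-stimulating factor in the neutrophil lineage and Epor for erythropoietin in the red cell lineage.

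The promoter windows of Kit, Csf3r and Epor are shown because they belong to the receptors on which the levels below turn. Each is 300 bases on GRCm38.p6, with 250 bases before and 50 after a RefSeq start site, read 5′ to 3′ on the gene's strand. Capitals mark matches on either strand to GATA, to GAGGAA (the core bound by PU.1), to TTGCNNAA (a pattern for sites bound by C/EBP factors) or to TGTGGT (the RUNX core). The Kit window is chr5:75574737-75575036 on the plus strand, the Csf3r window is chr4:126024409-126024708 on the plus strand, and the Epor window is chr9:21963527-21963826 on the minus strand.
Kit: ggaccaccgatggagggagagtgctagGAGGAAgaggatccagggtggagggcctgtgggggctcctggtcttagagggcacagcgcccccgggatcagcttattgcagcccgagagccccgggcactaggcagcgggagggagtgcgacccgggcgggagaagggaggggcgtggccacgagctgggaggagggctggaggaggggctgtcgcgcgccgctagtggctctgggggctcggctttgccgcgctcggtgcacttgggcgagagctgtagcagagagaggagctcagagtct
Csf3r: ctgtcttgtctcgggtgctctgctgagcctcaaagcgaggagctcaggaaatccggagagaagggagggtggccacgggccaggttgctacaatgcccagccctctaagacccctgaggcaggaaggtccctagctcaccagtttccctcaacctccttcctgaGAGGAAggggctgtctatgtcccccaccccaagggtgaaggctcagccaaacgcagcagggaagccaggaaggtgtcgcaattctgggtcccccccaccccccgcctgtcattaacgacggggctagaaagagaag
Epor: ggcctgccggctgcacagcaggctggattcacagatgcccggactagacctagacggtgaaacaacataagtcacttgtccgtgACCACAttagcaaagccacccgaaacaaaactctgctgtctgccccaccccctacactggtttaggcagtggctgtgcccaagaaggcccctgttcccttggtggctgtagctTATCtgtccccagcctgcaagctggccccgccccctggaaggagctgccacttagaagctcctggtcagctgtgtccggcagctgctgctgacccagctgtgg
The Kit window held GAGGAA at position -223 from the start site, and the Csf3r window held it at position -86. The Epor window held GATA on the opposite strand (as TATC) at position -53 and TGTGGT on the opposite strand (as ACCACA) at position -166. The Flt3 window, chr5:147400440-147400739 on the minus strand, held none of these motifs. The E-box CANNTG was also searched but is not marked, with 1 match in the Kit window, 0 in Csf3r, 2 in Flt3 and 5 in Epor. Of 32851 promoter windows of the same length, 57.9% held GATA, 28.3% GAGGAA, 10.8% TTGCNNAA, 16.8% TGTGGT and 72.3% CANNTG. These are matches of letters only. RefSeq windows were used for 4 of the 5 genes, with none for Csf1r. A second Kit window shifted by a few bases was left out.

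Summed over kept cells, BMCP held 84242320 counts in nuclear-encoded genes and GMP held 55520835. A BMCP cell held 96129 to 2416630 counts (median 893037), and a GMP cell held 130191 to 3688848 (median 1309887). The floor of 3 counts lay at 0.0356 reads scaled to 1e6 counts (CPM) in BMCP and at 0.0540 CPM in GMP. The labels were checked against marker lists. All 4 mast cell markers at 1 CPM or more were higher in BMCP, where the list of 8 summed to 8117 CPM, against 2.67 CPM in GMP, and all 8 neutrophil progenitor markers were lower, summing to 112 CPM in BMCP against 50249 CPM in GMP. Of all genes at 1 CPM or more, 25.8% were at least 2-fold higher in BMCP and 21% at least 2-fold lower. A few libraries stood apart from their label. BMCP 12 held 30.4 CPM of Gzmb, the granzyme B gene and the lowest level in a BMCP, beside 10061 CPM of the basophil protease gene Prss34. GMP 20, 24 and 30 held 25.6, 19.7 and 6.72 CPM of Elane, the neutrophil elastase gene, beside 1068, 1789 and 2144 CPM of Gata2. The ratios of Csf1r and Csf3r, their co-detection and the markers found with them are given with and without these cells.

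BMCP carried more Kit than GMP, and nearly no Csf1r, Csf3r or Flt3. Epor was higher in BMCP, but in few cells. On the log2(CPM + 1) scale, 2 of the 5 receptors were at least 2-fold higher in BMCP and 3 were at least 2-fold lower. The same fold was passed upward by 25.8% and downward by 21% of the 14554 genes at 1 CPM or more in either population. Per kilobase of exon and 1e6 counts (RPKM), the order in BMCP was Kit 151, Epor 3.16, Flt3 0.0250, Csf3r 0.00987 and Csf1r 0.00822. The counting limits of the last 3 overlapped. In GMP the order was Kit 36.7, Csf3r 28.97, Csf1r 20.95, Flt3 3.17 and Epor 0.489 RPKM. The counting limits did not overlap, but they leave out the spread between cells and do not fix the order. Csf1r had no read in 22 of 41 GMP, and all Epor reads of GMP were in GMP 11.

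**Figure D1:**
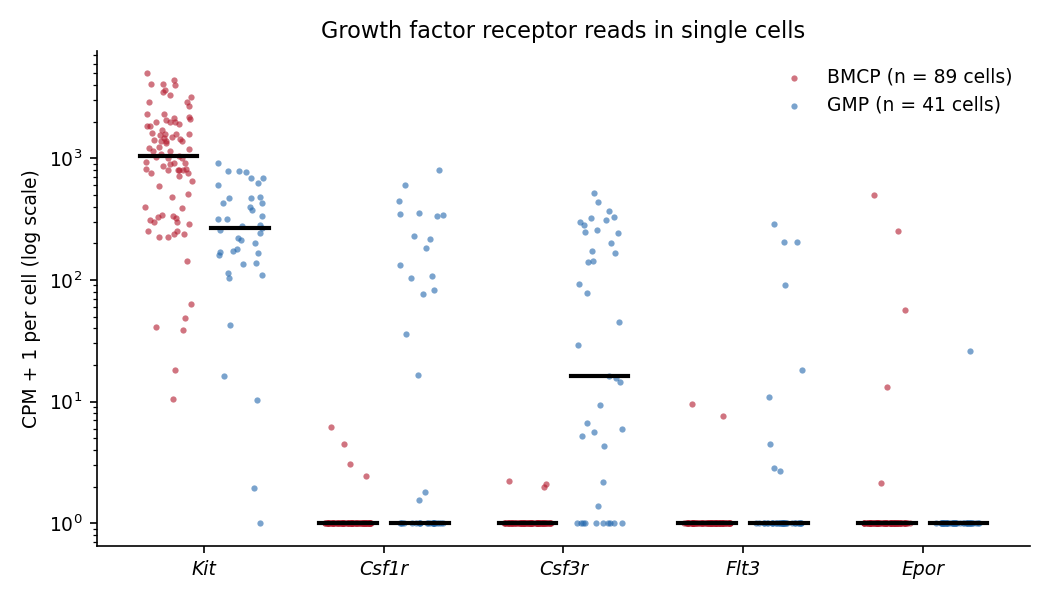
Reads of each receptor per cell as CPM + 1 on a log axis, 1 point per cell, with 89 BMCP (red, left of each pair) and 41 GMP (blue), and bars at the medians. Kit has a median of 1039 CPM in BMCP against 267 CPM in GMP, and points of Csf1r and Csf3r above 10 CPM are GMP only.

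Kit (ENSMUSG00000005672, chromosome 5, 75574916 to 75656722, plus strand) was the most abundant of the 5 in both populations. Per cell it ran over 9.48 CPM at the lowest, 1039 at the median and 4996 at the highest in 89 BMCP, and over 0, 267 and 907 CPM in 41 GMP. The populations overlapped: 51 BMCP lay above the highest GMP and 13 BMCP below the GMP median, while 0 GMP lay above the BMCP median. Over cells it averaged 1339 ± 1124 CPM in BMCP, against 325 ± 243 CPM in GMP (SD over 89 and 41 cells, which are not replicates). Summed, Kit had 1342 CPM in BMCP (1334 to 1350) and 327 CPM in GMP (322 to 331), a log2 ratio of 2.04 (BMCP over GMP, as in all log2 ratios here). Scaling by spike-in RNA in place of total counts gave 1.17, and spike-in scaling moved the median of all genes to -0.76, against 0.04 by total counts. No single cell carried the difference, because the top cell held 5.09% of Kit reads in BMCP and 9.81% in GMP. Kit showed little relation to depth, with a Spearman rho against total counts of 0.0736 over BMCP and -0.0221 over GMP.

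The cells lowest in Kit were not alike. BMCP 7, the lowest BMCP at 9.48 CPM, carried 4021 CPM of Gzmb and 459 CPM of Klf1, an erythroid transcription factor gene. BMCP 1 and BMCP 5 followed with 17.1 and 37.5 CPM of Kit, and no other receptor of the 5 had a read in these 3 cells. Among GMP, GMP 2 had no Kit read, and GMP 15 had 0.953 CPM and GMP 5 had 9.31 CPM. Each of these GMP had Csf3r, at 43.7, 437 and 369 CPM in that order, and 28920 CPM or more of Mpo, the myeloperoxidase gene.

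**Figure D2:**
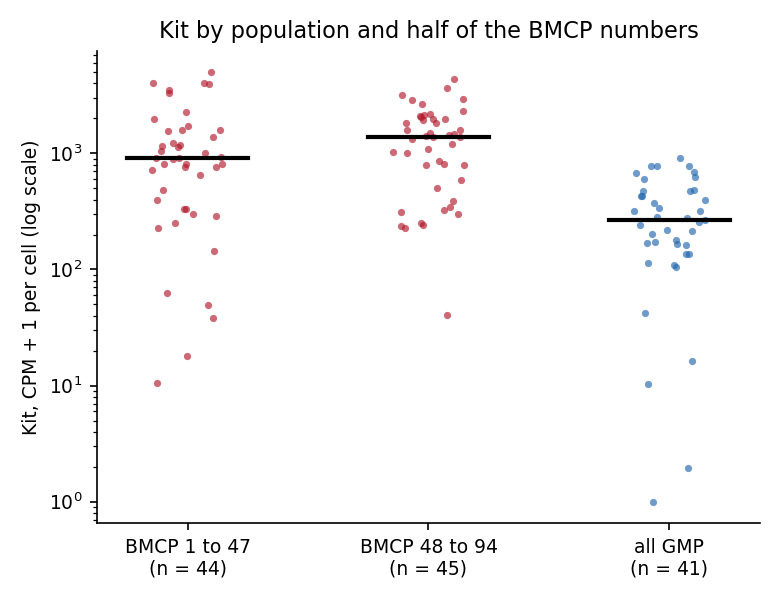
Kit per cell as CPM + 1 on a log axis for BMCP with label numbers 1 to 47 (n = 44 cells), BMCP with numbers 48 to 94 (n = 45) and GMP (n = 41), with bars at the medians. The medians are 907, 1390 and 267 CPM, and both BMCP medians lie above the GMP median while the cells overlap.

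The BMCP split by label number gave similar sums, 1373 CPM for numbers 1 to 47 and 1323 CPM for numbers 48 to 94. Their medians differed more, at 907 and 1390 CPM, and so did the median total counts, at 698384 and 1119900. The part of depth in this was not tested.

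Csf1r (ENSMUSG00000024621, chromosome 18, 61100598 to 61132149, plus strand) was close to undetected in BMCP. It had 4 reads there, 1 in each of 4 cells, against 6717 reads in GMP. Per cell the BMCP lowest and median were 0 and the highest 5.18 CPM, while the GMP lowest and median were 0 and the highest 805 CPM, in GMP 32. In GMP 22 of 41 cells had no read, so the sum came from the other 19. The summed level was 0.0475 CPM in BMCP (0.0129 to 0.122), against 121 CPM in GMP (118 to 124), a log2 ratio of -6.86 on the log2(CPM + 1) scale and a ratio of 2548 on the CPM scale, GMP over BMCP (995 to 9354). The 3′ end of the gene overlaps Hmgxb3 on the other strand, and the libraries do not mark strand. Hmgxb3 had 10.6 CPM in BMCP against 40.8 CPM in GMP.

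Csf3r (ENSMUSG00000028859, chromosome 4, 126024550 to 126044440, plus strand) followed the same split with wider detection in GMP. BMCP had 3 reads, 1 in each of 3 cells, 1 of which was BMCP 12. GMP had 5804 reads, with a lowest cell of 0, a median of 15.4 and a highest of 513 CPM, in GMP 26, and 10 of 41 cells without a read. The sums were 0.0356 CPM in BMCP (0.00734 to 0.104) and 104.5 CPM in GMP (102 to 107), a log2 ratio of -6.67 and a CPM ratio of 2935, GMP over BMCP (1004 to 14239). Leaving out BMCP 12 and GMP 20, 24 and 30 gave log2 ratios of -6.98 for Csf1r and -6.81 for Csf3r.

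Flt3 (ENSMUSG00000042817, chromosome 5, 147330741 to 147400489, minus strand) was sparse in both populations. BMCP had 13 reads, 9 in BMCP 6 and 4 in BMCP 28, so the lowest and median cell were 0 and the highest 8.58 CPM. GMP had 1087 reads in 9 of 41 cells, with a lowest and median of 0 and a highest of 289 CPM, in GMP 18. The sums were 0.154 CPM in BMCP (0.0822 to 0.264) and 19.6 CPM in GMP (18.4 to 20.8), a log2 ratio of -4.16. GMP 18 held 40.9% of the GMP reads, and without it GMP had 11.9 CPM. Without BMCP 6, BMCP had 0.0481 CPM. The antisense gene Gm26597 overlaps the 5′ end of Flt3 and had 0 reads in BMCP and 142 in GMP. GMP 9 had 85 of these beside 4 of Flt3, and GMP 18 had 45 beside 445 of Flt3. Strand is not marked, so the strand of reads where the genes overlap is not known.

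Epor (ENSMUSG00000006235, chromosome 9, 21958897 to 21963506, minus strand) was confined to few cells. In BMCP 529 reads came from 5 of 89 cells: BMCP 68 had 279 reads, BMCP 37 had 210, BMCP 76 had 26, BMCP 25 had 13 and 1 more cell had 1. In GMP all 54 reads were in GMP 11. The lowest and median cell were 0 CPM in both, and the highest was 498 CPM in BMCP against 24.8 CPM in GMP. The sums were 6.28 CPM in BMCP (5.76 to 6.84) and 0.973 CPM in GMP (0.731 to 1.27), a log2 ratio of 1.88. It rested on single cells, since it was 1.02 without BMCP 68 and 2.86 without GMP 11, and BMCP had 3.01 CPM without BMCP 68.

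Erythroid markers varied among the Epor cells. BMCP 68 had 525 CPM of Klf1 and 335 CPM of Car1, the carbonic anhydrase gene of early red cells, and BMCP 25 had 0 CPM of Klf1 beside 640.5 CPM of Car1 and 621 CPM of Gata1. BMCP 37, the cell highest in Epor, had 0 CPM of Klf1 and of Car1 and 2.37 CPM of Gata1. BMCP 76 had 2.14 CPM of Klf1 beside 575 CPM of Tfrc, the transferrin receptor gene, which had 0 CPM in BMCP 25, 37 and 68. These markers were not confined to cells with Epor. BMCP 91 and BMCP 75 had no Epor read, with 714 and 702 CPM of Klf1 and 1888 and 1650 CPM of Car1. Over the whole erythroid list, 3 of 5 markers at 1 CPM or more were at least 2-fold higher in BMCP and 0 were lower. Of all genes at that level, 25.8% were at least 2-fold higher and 21% lower. The summed level of the list per cell reached 3604 CPM in BMCP against 1878 CPM in GMP. Whether other cell types take part in the Epor reads was not tested.

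Shares of cells were compared after thinning each cell to 200000 reads, which kept 86 BMCP and 40 GMP, with a gene called detected at 2 reads. Kit was detected in 85 of 86 BMCP, against 38 of 40 GMP. Csf1r was detected in 0 of 86 BMCP, which allows a share of up to 3.49% at 3 cells of the total and 4.2% by the Clopper-Pearson limit, and in 16 of 40 GMP (40%, exact Clopper-Pearson limits 24.9 to 56.7%). Csf3r was detected in 0 of 86 BMCP, with the same upper limits, and in 24 of 40 GMP (60%, 43.3 to 75.1%). The lower GMP limits lay above both of those BMCP limits. Flt3 was detected in 0 of 86 BMCP, against 7 of 40 GMP (17.5%, 7.34 to 32.8%), and Epor in 4 of 86 BMCP (4.65%, 1.28 to 11.5%) and 1 of 40 GMP (2.5%, 0.0633 to 13.2%). The Epor limits overlapped. Unthinned, Csf1r had 2 reads or more in 0 of 89 BMCP and 18 of 41 GMP, and Csf3r in 0 of 89 BMCP and 29 of 41 GMP.

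BMCP carried a single receptor combination almost throughout. Of 86 BMCP, 81 had Kit alone, 4 had Kit with Epor and 1 had none, and no BMCP had 3 receptors. GMP were mixed, with 1 receptor in 12 of 40 cells, 2 in 13, 3 in 12 and 4 in 3. Kit alone was found in 10 GMP, Kit with Csf3r in 9, and Kit with Csf1r and Csf3r in 9. Csf3r alone was found in GMP 2 and GMP 15. The cells with 4 receptors were GMP 1 and GMP 36, with Flt3 as the last, and GMP 11, with Epor. No cell had all 5. These counts are at 2 reads, and the cells with 4 receptors rest on few reads. GMP 1 had 2 reads of Csf3r and 3 of Flt3, GMP 36 had 6 of Csf3r, and GMP 11 had 6 of Epor. At 10 reads, 15 of 40 GMP had 1 receptor, 13 had 2, 11 had 3, 0 had 4 and 1 had none. At that cut 81 of 86 BMCP had Kit alone, 2 had Kit with Epor and 3 had none.

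Csf1r and Csf3r, which serve the monocyte and the neutrophil branch, were not exclusive in single GMP. At 2 reads, 12 of 40 GMP had both, 4 had Csf1r only, 12 had Csf3r only and 12 had neither, so Csf3r was found in 75% of GMP with Csf1r and 50% of GMP without it. At 10 reads, the counts were 8 with both, 7 with Csf1r only, 11 with Csf3r only and 14 with neither, and the shares were 53.3% and 44%. Without GMP 20, 24 and 30, 12 of 37 GMP had both at 2 reads. Over 40 GMP the Spearman rho was 0.12 between Csf1r and Csf3r, 0.13 between Kit and Csf1r and -0.08 between Kit and Csf3r. These are weak and carry no test. The Spearman rho with total counts was 0.343 for Csf1r and -0.174 for Csf3r over 41 GMP.

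**Figure D3:**
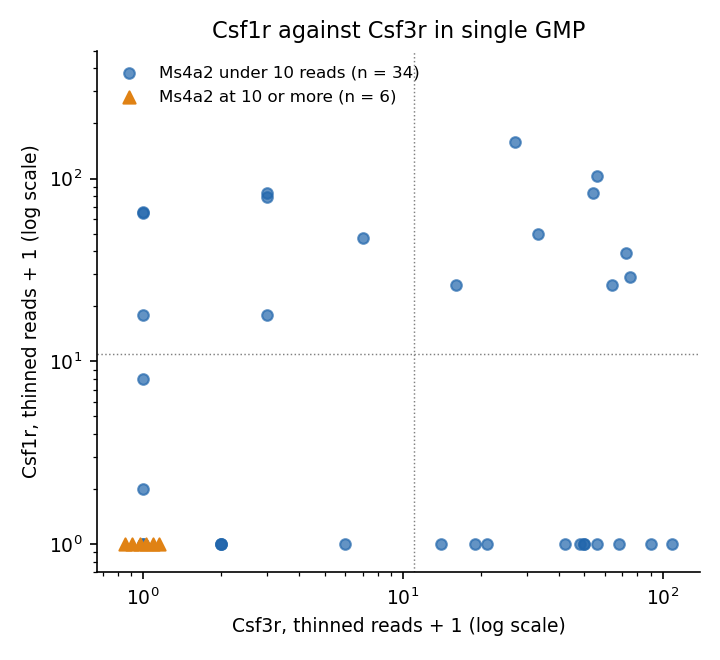
Csf1r (vertical axis) against Csf3r (horizontal axis) in 40 GMP, as reads + 1 after thinning to 200000 reads on log axes, with dotted lines at 10 reads. The 8 cells at upper right have both receptors, and the 6 cells with Ms4a2 at 10 reads or more (triangles, set apart sideways so that each is seen) all have 0 reads of both.

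Flt3 was found in few GMP. At 2 reads 7 GMP had it, 4 of them with Csf1r and GMP 26 with Csf3r and no Csf1r. GMP 14 and GMP 20 had neither, at 2 and 3 reads of Flt3. Of all 40 GMP, 12 had neither Csf1r nor Csf3r at 2 reads, a share close to that among the cells with Flt3. At 10 reads 4 GMP had Flt3, of which 3 also had Csf1r (GMP 6, 18 and 36) and GMP 26 had Csf3r. Of all 40 GMP, 14 had neither at 10 reads. All 4 had Irf8, a transcription factor gene of monocytes and dendritic cells, against 16 of 36 GMP without Flt3. Cebpe, a transcription factor gene of later neutrophil stages, was in 0 of 4, against 16 of 36. Other markers were mixed in these cells. Ly86, on the monocyte list, had 30 and 97 reads in GMP 6 and 36 and 0 in GMP 18 and 26. Ccr2, on that list too, had 15 and 251 reads in GMP 6 and 18, and 6 and 8 in GMP 26 and 36. All 4 had 4072 reads or more of Mpo and 623 or more of Elane. With 4 cells these are descriptions.

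Some marker genes differed in share between GMP with Csf1r or Csf3r and GMP with neither. At 10 reads 26 GMP had Csf1r or Csf3r and 14 had neither. Ms4a2, the beta chain of the high-affinity IgE receptor, was found in 0 of 26 cells with a receptor and 6 of 14 with neither. Il1rl1, the interleukin 33 receptor gene, was found in 0 of 26 and 7 of 14, and Gata1 in 0 of 26 and 5 of 14. Other genes of basophils and mast cells were found on both sides: Gata2 in 7 of 26 and 10 of 14, Cpa3 in 12 of 26 and 9 of 14, and Mcpt8 in 10 of 26 and 9 of 14. Some neutrophil and monocyte markers had higher shares in cells with a receptor. Ms4a3 was found in 26 of 26 and 9 of 14, and Ly6c2 in 23 of 26 and 6 of 14. Ly86 was found in 10 of 26 and 1 of 14, and Ccr2, a chemokine receptor of monocytes, in 8 of 26 and 0 of 14. Irf8 and Cebpe, from the same lists, were found on both sides in shares closer together. Among GMP with neither receptor, GMP 47 had 108 reads of Irf8 and GMP 34 had 61 of Cebpe. Mpo was found in all 40 cells. The median total counts were 1338262 in cells with a receptor and 1280389 in cells with neither. Part of the Ms4a2 cells were those that stand apart, and without GMP 20, 24 and 30 the counts were 0 of 26 and 3 of 11 for Ms4a2, 0 of 26 and 4 of 11 for Il1rl1, 0 of 26 and 3 of 11 for Gata1, and 7 of 26 and 7 of 11 for Gata2. At 2 reads, 28 GMP had a receptor and 12 had neither, with Ms4a2 in 1 and 6, Il1rl1 in 1 and 7 and Gata1 in 0 and 6. These splits of cells were made on the receptors' own reads and are descriptions.

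**Figure D4:**
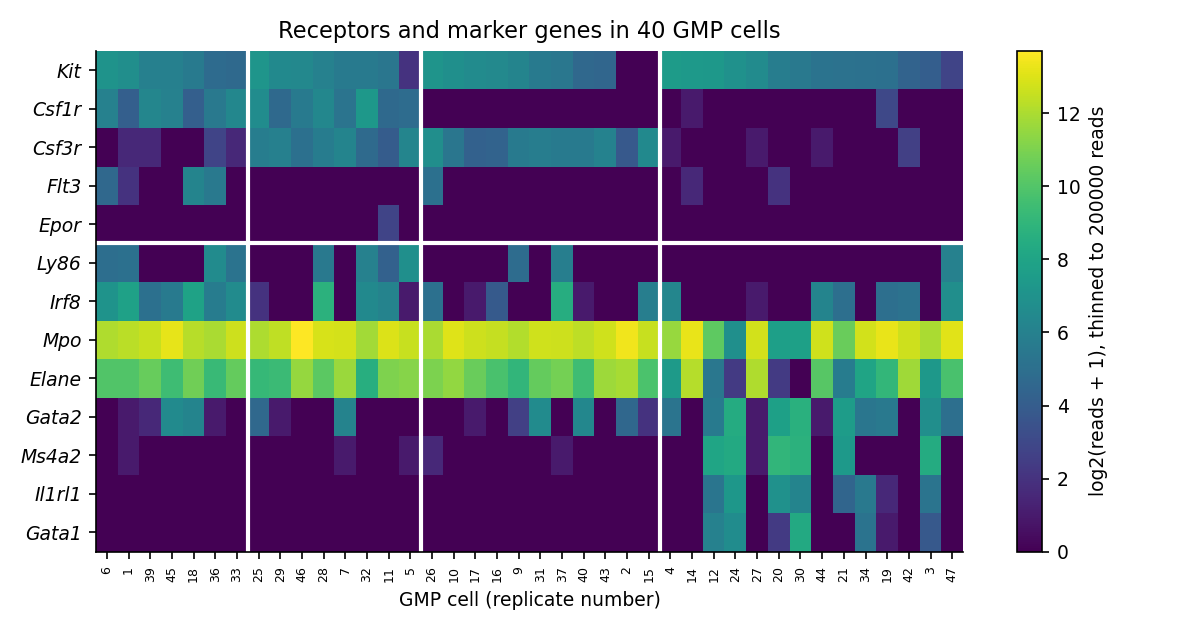
Reads of the 5 receptors (above the white line) and of 8 marker genes (below it) in 40 GMP, 1 column per cell with its label number, as log2(reads + 1) after thinning to 200000 reads. Columns are set by receptors at 10 reads into Csf1r only (7 cells), both (8), Csf3r only (11) and neither (14), each sorted by Kit, and Ms4a2, Il1rl1 and Gata1 at 10 reads lie in the last block.

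Over all 40 GMP at 10 reads, markers were also counted for each receptor alone. Ly86 was found in 8 of 15 GMP with Csf1r and 3 of 25 without it, and Ccr2 in 7 of 15 and 1 of 25. Irf8 was found in 10 of 15 GMP with Csf1r and 10 of 25 without it, but in 7 of 19 with Csf3r and 13 of 21 without it. Cebpe was found in 9 of 19 GMP with Csf3r and 7 of 21 without it. The difference between the receptors in these shares was not tested.

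The genes most like each receptor were taken by Spearman rho over thinned reads, among 4898 genes in 86 BMCP and 7502 genes in 40 GMP. In BMCP the highest values for Kit were weak: 0.49 for Id2, an inhibitor of E proteins, 0.49 for Cpa3, a carboxypeptidase of mast cell granules, 0.47 for Cyp11a1, 0.46 for Atp8b5 and 0.44 for Lat2. In GMP Csf1r was most like 4930526A20Rik (0.65) and F13a1 (0.60), the gene of a coagulation factor subunit made by monocytes. Csf3r was most like Tmem87b (0.68), Eif4enif1 (0.62) and Pglyrp1 (0.61), the gene of a neutrophil granule protein. These are the highest of many values over cells of 1 population, and they carry no test.

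Most genes of the receptors' ligands were near the floor. Of 5 ligand genes with a row, Csf1, the ligand of Csf1r, reached 1 CPM, at 32.5 CPM in BMCP against 6.95 CPM in GMP, and without BMCP 29 it had 12.1 CPM in BMCP, and without GMP 3 it had 4.60 CPM in GMP. The other 4, Kitl, Il34, Csf3 and Epo, were at or under 3 counts in both populations.

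Other receptor tyrosine kinases had 16 of 48 genes at 1 CPM or more, 5 at least 2-fold higher in BMCP and 8 at least 2-fold lower, with a median log2 ratio of -1.29 against 0.04 over all genes at that level. Over all 48 genes of the list the median was 0. Of all genes at 1 CPM or more, 25.8% were at least 2-fold higher in BMCP and 21% at least 2-fold lower. Pdgfrb, the platelet-derived growth factor receptor gene that lies 15536 bases before Csf1r on chromosome 18, had 313 CPM in BMCP against 25.1 CPM in GMP, or 16.05 CPM without GMP 40. Its lowest, median and highest cells were at 0, 78.7 and 2316 CPM in BMCP and at 0, 0 and 590.3 CPM in GMP. It was detected in 54 of 86 BMCP, against 7 of 40 GMP. At 10 reads 7 GMP had Pdgfrb and 1 of these had Csf1r, against 15 of all 40 GMP with Csf1r. With 7 cells this is a description. Pdgfra, the neighbour of Kit and also a type III receptor, had 0 reads in both, and Kdr on the other side had 12 reads in BMCP and 30 in GMP, where without GMP 33 it had 0.129 CPM. Igf1r, the insulin-like growth factor receptor gene, had 227 CPM in BMCP against 89.1 CPM in GMP. Met, the hepatocyte growth factor receptor gene, had 2 reads (0.0237 CPM) in BMCP against 26.5 CPM in GMP, in 4 of 40 cells.

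Other class I cytokine receptors, the family of Csf3r and Epor, had 15 of 23 genes at 1 CPM or more. Of these, 7 were at least 2-fold higher in BMCP and 2 at least 2-fold lower, against 25.8% and 21% of all genes at that level. The median log2 ratio was 0.32, and it was 0.0074 over all 23. Il2rg, the common gamma chain, had 848 CPM in BMCP against 79.6 CPM in GMP, and Il9r, a receptor gene whose chain pairs with it, had 40.5 CPM in BMCP against 0.0901 CPM (5 reads) in GMP. Csf2rb, the common beta chain, had 507 CPM in BMCP against 147 CPM in GMP. Its near copy Csf2rb2 had 373 CPM in BMCP against 8.88 CPM in GMP, or 5.36 CPM without GMP 20, and reads of the pair may be split uncertainly. The alpha chains that pair with them stayed within 2-fold, with 63.3 CPM of Csf2ra in BMCP and 69.5 CPM in GMP, and 47.4 CPM of Il3ra in BMCP and 70.1 CPM in GMP. Il6ra had 0.0831 CPM in BMCP against 57.04 CPM in GMP, the lowest log2 ratio of this list at -5.74.

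**Figure D5:**
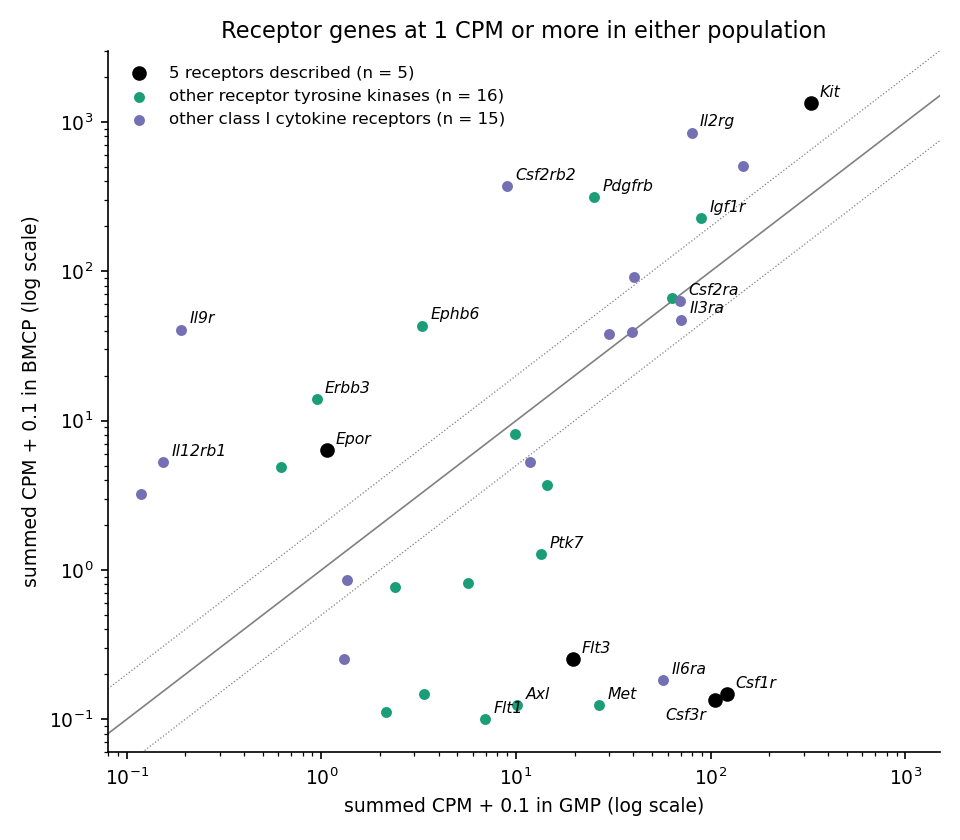
Summed CPM + 0.1 in BMCP (vertical axis) against GMP (horizontal axis), both on log axes, for the 5 receptors (black) and other receptor genes at 1 CPM or more in either population, with a line at equal levels and dotted lines at 2-fold. Kit and Epor lie above the upper dotted line, and Csf1r, Csf3r and Flt3 lie at the bottom right with Il6ra and Met.

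Genes that act downstream of these receptors were found on both sides of the comparison. Of 53 signalling genes, 52 reached 1 CPM, 15 were at least 2-fold higher in BMCP, 6 were at least 2-fold lower and 31 lay between, with a median log2 ratio of 0.53. Over all genes 25.8% were higher and 21% lower by that fold. Among those higher were Dok2, an adaptor, at 224 CPM in BMCP against 6.25 CPM in GMP (0.589 CPM without GMP 14), Plcg1, a phospholipase, at 388 CPM in BMCP against 64.8 CPM in GMP, and Jak2, the kinase that Epor uses, at 197 CPM in BMCP against 37.3 CPM in GMP. Fes, a kinase gene, had 776 CPM in BMCP against 257 CPM in GMP. Socs2, a feedback inhibitor gene, had 44.6 CPM in BMCP against 0.0360 CPM (2 reads) in GMP. Among those lower, Sh2b2, an adaptor gene, had 1 read in BMCP (0.0119 CPM) against 43.9 CPM in GMP, or 26.1 CPM without GMP 6. Gab1, a docking protein gene, had 1.52 CPM in BMCP, or 0.240 CPM without BMCP 64, against 36.3 CPM in GMP. Stat5a, Ptpn11 and Vav1 lay within 2-fold.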

How the data were processed

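Single cells were sorted into plates and made into full-length cDNA with spike-in RNA, per the labels' protocols, with no molecular identifiers named. The deposited values are whole-number read counts, not normalized. GSNAP 2015-09-29, HTSeq 0.5.3p3 and the mm10 build are named in the submitters' processing notes. Strand is not marked. HTSeq's summary rows stayed out of totals: reads with no gene were 17.6% in BMCP and 11.1% in GMP, ambiguous reads 3.77% and 6.03%, and unaligned reads 30.4% and 27.5%. Symbols, found for 45143 of 46078 rows, and positions came from a GRCm38 annotation, and Flt3l had no matching row.

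Cells needed 50000 nuclear-encoded counts, 1000 genes, at most 10% mitochondrial counts and at most 50% spike-in reads. Cells were sorted one by one, and doublets were not called. CPM used nuclear-encoded totals, ratios used a pseudocount of 1 CPM, and lists were counted at 1 CPM in either population. Limits were exact Poisson for sums of reads and Clopper-Pearson for shares of cells, both at 95%. Reads are not independent molecules, so the Poisson limits are too narrow. Limits on shares treat cells as independent draws. Neither covers the spread between mice. The receptors and gene lists were chosen with earlier results of these data known. Any list member could be named, but many of those named stood out by their values, so they do not stand for their lists. The cells with low Kit, Gm26597, and genes most like a receptor were named by their values. The steps were tested on simulated counts. Alternatives covered cell weights, scaling with edgeR 4.0.16 (TMM) and DESeq2 1.42.0 (median of ratios), filters, depth and left-out cells. Python 3.11.15, numpy 2.4.6, pandas 2.3.3 and scipy 1.17.1 were used.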

Additional observations from a re-analysis of the deposited data

Results flagged for a closer look

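The 11 cells that missed the quality filters were used in no comparison, and reads of 3 receptors were above the floor of 3 counts in them. In the 5 BMCP left out, Kit had 594 reads, or 528 CPM. In the 6 GMP left out, Kit had 243 CPM, Csf1r 145 CPM and Csf3r 237 CPM.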

How the results depend on the processing

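The log2 ratios of the 5 receptors kept their sign in all 55 alternatives run. Scaling by spike-in RNA gave 1.17 for Kit, -7.31 for Csf1r, -7.12 for Csf3r, -4.62 for Flt3 and 1.29 for Epor. Scaling by TMM gave 2.09 for Kit, and median-of-ratios factors gave 2.10. The mean over cells gave -6.58 for Csf1r, -6.81 for Csf3r and 2.67 for Epor. A pseudocount of 0.1 gave -9.68 for Csf1r, -9.59 for Csf3r, -6.27 for Flt3 and 2.57 for Epor. BMCP 1 to 47 gave 2.07 for Kit and -3.87 for Flt3, and BMCP 48 to 94 gave -4.36 for Flt3. Leaving out the BMCP or the GMP with the most reads of the gene, which was the only single-cell omission run, gave 1.98 to 2.11 for Kit, -6.88 to -6.73 for Csf1r, -6.69 to -6.61 for Csf3r, -4.30 to -3.48 for Flt3 and 1.02 to 2.86 for Epor. Leaving out BMCP 12 and GMP 20, 24 and 30, chosen after seeing the data, gave 2.07 for Kit, -6.98 for Csf1r and -6.81 for Csf3r. The share of BMCP with Kit was 98.8%, and it was 100% with detection at 1 read, at a depth of 100000, without thinning and with another random seed. It was 97.7% at 5 reads, 96.5% at 10 reads and 96.6% at a depth of 50000. The share of GMP with both Csf1r and Csf3r was 30%. It was 25% with another random seed, 19.5% at a depth of 50000 and 31.7% without thinning. With no filter on low genes, the median log2 ratio was 0 for other receptor tyrosine kinases. The causes of these moves were not tested. No paired analysis was possible because the label numbers only name cells and no test was run. Depth limits detection: unthinned, 4 of 89 BMCP had a read of Csf1r and 0 had 2. Mice cannot be compared.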
